A study of Mus musculus with 4 samples.

Results

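The HOX genes are the homeobox transcription factors that lie in clusters A, B, C and D of the mouse genome. They were taken here by name, with earlier results of these data known. The rule took every gene whose symbol is Hoxa, Hoxb, Hoxc or Hoxd followed by a number and that had its own array feature. This gave 37 members of 19938 measured genes, 10 of cluster A and 9 each of clusters B, C and D, and each was read by 1 transcript cluster, the array's set of probes for a transcript. Hoxb8 was read only by a transcript cluster shared with Hoxb7.

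HOX proteins tell cells of the embryo where along the head-to-tail axis they lie. In each cluster the genes stand in the order in which they are used, so that those with low numbers are active in anterior tissue such as the hindbrain, those in the middle in the trunk, and those with high numbers in the lumbar and tail regions, the limbs and the urogenital tract. Adult cells often keep a HOX pattern of their place of origin, held silent elsewhere by Polycomb proteins and held active by Trithorax proteins, and fibroblasts from different body sites are known to differ in it. In the text, numbers 1 to 3 are called anterior, 4 to 8 central and 9 to 13 posterior.

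RNA came from 4 lines of mouse pancreatic ductal adenocarcinoma cells grown from digested tumours, without any treatment, 1 array per line. The TPC lines TPC18645 and TPC20223 carried the genotype given as Ela-TGFa, Ptg1a+/CRE and Trp53fl/fl. In these mice the growth factor TGF-α is driven by the elastase promoter of acinar cells, and Cre from the Ptf1a locus removes p53 in pancreatic cells. The TPAC lines K459 and TCPA18654 carried the same 3 alleles and p65fl/fl, which removes the NF-κB subunit RelA, and the series sets these genotypes beside each other. Neither age nor sex is given in the sources used here, nor whether both lines of a genotype stem from different animals, so the spread within a genotype is the spread between these 2 lines.

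All values are log2 signals, so that a difference of 1 is 2-fold. The array medians ran from 7.19 to 7.26. Rela, the targeted gene of the TPAC lines, had signals of 11.12 and 10.70 in the TPC lines TPC18645 and TPC20223 and of 10.82 and 11.10 in the TPAC lines K459 and TCPA18654, but the array summarises probes along the transcript and not the deleted exons alone, so it does not check the labels. TPC20223 stood apart from the other lines. Over 13 measured ductal and epithelial markers its mean signal was 7.18, while TPC18645 had 9.58, K459 had 10.8 and TCPA18654 had 9.77, and 7 of the 13 were at least 2-fold below every other line, against 2.95% of all genes. Krt19, a keratin that defines duct cells, was at 11.74, 6.08, 12.65 and 11.79 in TPC18645, TPC20223, K459 and TCPA18654, the order used for every set of 4 values from here on. Over 16 fibroblast and mesenchymal markers the mean signals were 8.77, 10.0, 9.05 and 8.62. Because every result that rests on TPC20223 moves with these markers, the comparison of genotypes is given for the HOX genes with and without this line.

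No detection calls were used, so the 95th percentile of 1027 olfactory receptor genes, taken as genes silent in these cells, served as the background reference on each array, at 6.37, 6.35, 6.35 and 6.48. In TPC20223, 31 of 37 HOX genes lay above it, while TPC18645 had 16, K459 had 17 and TCPA18654 had 15. Over all genes the shares above it were 69.0%, 70.4%, 70.2% and 68.2%. The median HOX signal was 7.36 in TPC20223 and between 6.19 and 6.34 in the other lines. These counts depend on the reference, and were 5, 20, 3 and 3 at the 99th percentile of the olfactory receptors and 34, 37, 34 and 33 at the 95th percentile of vomeronasal receptors. Whether most HOX genes of the other 3 lines were above background therefore cannot be said. Where the other lines lie below the olfactory reference, a difference from them is one of measured signals and does not give the size of a change. Of the 37 members, 25 had a mean no higher than 6.96, the 40th percentile of all genes, and are called dim.

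TPC20223 had the highest signal of the 4 lines in 34 of 37 HOX genes, against 28.1% of all genes. The exceptions were the anterior genes Hoxb1, Hoxd1 and Hoxd3, of which Hoxd3 spanned 0.25. Hoxd1 lay below the background reference in every line, as did Hoxa2, Hoxa3, Hoxc4, Hoxd4 and Hoxd12 among the 34. The order of the lines in these genes is not a measure of expression. In 14 of 37, or 37.8%, TPC20223 was at least 2-fold above every other line, against 4.24% of all genes. None of the other lines led in this way in any HOX gene, where 0.0251% of all genes did so in TPC18645, 0.988% in K459 and 0.0201% in TCPA18654. With 1 array per line these are descriptions of 4 arrays and carry no test, and in RNA of whole cultures more cells that use a gene and more RNA per cell cannot be told apart.

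**Figure D1:**
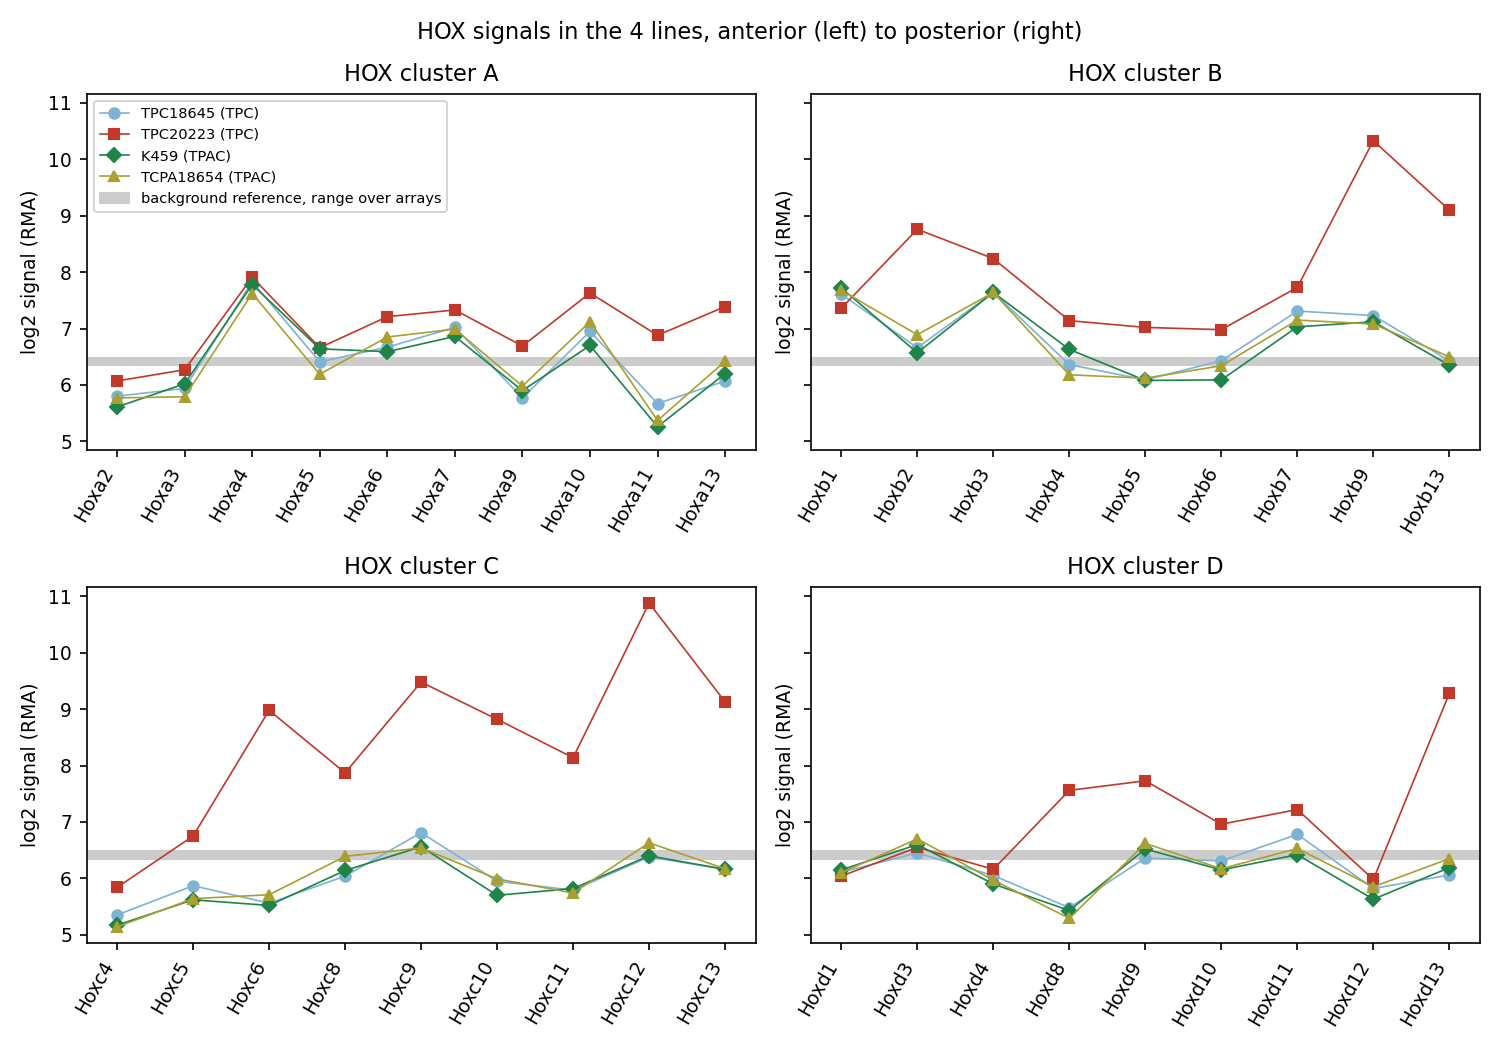
Log2 signal of each HOX gene (vertical axis) in the 4 lines, 1 panel per cluster, with genes from low to high number along the horizontal axis. Points are single arrays, thin lines join the genes of 1 line and the grey band is the range of the background reference, 6.35 to 6.48; levels of different genes are not comparable. TPC20223 (red squares) stands above the other 3 lines over most of clusters B, C and D, up to 10.88 at Hoxc12, while the other 3 stay within 0.45 of each other at every gene.

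Cluster C held the largest differences. Its 9 members led in TPC20223 by a median of 2.67 over the next line, and 7 of 9 led by 1 or more. Hoxc12, a posterior gene of the tail region and hair follicle, was at 6.38, 10.88, 6.40 and 6.63, so that TPC20223 was 19.0-fold above the next line and the other 3 lay just above the background reference. Hoxc13, a regulator of hair keratin genes, was at 6.16, 9.13, 6.16 and 6.17, with nearly identical values in the 3 lines without the rise. Hoxc10, active in lumbar motor neurons and the hindlimb, was at 5.95, 8.82, 5.70 and 5.99.

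Hoxc9, which marks thoracic motor neurons, was at 6.81, 9.48, 6.56 and 6.54, and here both TPC lines were above both TPAC lines. Hoxc11, of lumbar and sacral levels, was at 5.79, 8.14, 5.82 and 5.74. All 5 posterior genes of cluster C thus stood apart in TPC20223, with leads between 2.32 and 4.25. In the central part, Hoxc6, a gene of the forelimb level, was at 5.56, 8.98, 5.52 and 5.71, above the reference in TPC20223 alone. Hoxc8, which patterns thoracic vertebrae, was at 6.04, 7.87, 6.14 and 6.39.

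The remaining members of cluster C showed less. Hoxc5 was at 5.87, 6.75, 5.62 and 5.64, above the background reference in TPC20223 alone and leading there by 0.88. Hoxc4 was at 5.35, 5.84, 5.17 and 5.14, below the reference in every line, so its order is not a measure of expression.

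In cluster B the genes at the posterior end and 1 anterior gene stood out. Hoxb9, a gene of the thoracic ribs, was at 7.23, 10.33, 7.12 and 7.08, with a lead of 3.10 in TPC20223. Hoxb13, the last gene of the cluster and a regulator of prostate and tail development, was at 6.43, 9.10, 6.35 and 6.50. Hoxb2, which patterns the hindbrain and the neural crest that leaves it, was at 6.66, 8.76, 6.57 and 6.89, and is the only anterior member of any cluster with a lead of 1 or more.

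Between these, the leads of TPC20223 in cluster B were small. Hoxb3 was at 7.64, 8.24, 7.64 and 7.64, Hoxb4 at 7.14 and Hoxb5 at 7.02 in TPC20223 against at most 6.63 and 6.12 elsewhere, and Hoxb6 and Hoxb7 led by 0.55 and 0.42. Hoxb1, which specifies the hindbrain segment of the facial nerve, was at 7.61, 7.36, 7.72 and 7.68, lowest in TPC20223. The transcript cluster shared by Hoxb7 and Hoxb8 was at 5.59, 6.62, 5.69 and 5.80 and cannot be given to either gene.

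Cluster D was uneven. Hoxd13, which with Hoxa13 patterns the digits and the urogenital tract, was at 6.06, 9.28, 6.19 and 6.35, a lead of 2.93 in TPC20223. Hoxd12, its neighbour on the chromosome, was at 5.82, 5.98, 5.63 and 5.85, below the background reference in every line. Going on along the cluster, Hoxd11, a gene of the forearm and kidney, led by 0.44 and Hoxd10 by 0.65, Hoxd9 was at 6.36, 7.73, 6.52 and 6.62, and Hoxd8 at 5.48, 7.56, 5.43 and 5.29. Leads of TPC20223 in cluster D therefore did not run evenly along the cluster, with the smallest posterior lead, 0.13, directly beside the largest.

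At the anterior end, Hoxd1 was at 6.11, 6.04, 6.15 and 6.10, Hoxd3 at 6.45, 6.55, 6.60 and 6.70, and Hoxd4 at 6.05, 6.16, 5.90 and 5.97. These 3 genes spanned at most 0.26 and lay close to the reference in all lines.

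The promoters of Hoxd13 and Hoxd12 are shown because these neighbours differed in TPC20223. Each is the 250 bases before the gene's start in RefSeq, build GRCm38.p6, plus strand, with every CG dinucleotide, the site of DNA methylation in mammals, in capitals. That of Hoxd13 is chr2:74667975-74668224, with 31 CG dinucleotides and a base content of 74.4% G and C, and that of Hoxd12 is chr2:74674763-74675012, with 10 and 55.6%.
Hoxd13: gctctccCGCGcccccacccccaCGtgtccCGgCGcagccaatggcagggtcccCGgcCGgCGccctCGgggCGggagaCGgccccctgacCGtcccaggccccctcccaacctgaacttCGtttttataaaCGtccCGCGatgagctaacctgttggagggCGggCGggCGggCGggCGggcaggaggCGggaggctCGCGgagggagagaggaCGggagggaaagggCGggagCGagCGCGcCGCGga
Hoxd12: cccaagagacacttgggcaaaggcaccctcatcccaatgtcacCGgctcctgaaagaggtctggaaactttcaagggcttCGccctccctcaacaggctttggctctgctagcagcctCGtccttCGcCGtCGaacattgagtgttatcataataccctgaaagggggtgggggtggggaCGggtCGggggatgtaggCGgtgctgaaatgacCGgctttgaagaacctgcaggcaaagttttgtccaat

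In the same source, 23 promoters of 21 member genes had a median of 13 CG dinucleotides, against 6 over all 32851 promoters. It held none for Hoxb2, Hoxb9, Hoxb13, Hoxc6 and Hoxc8 to Hoxc13, and only that of Hoxc4 in cluster C. Most members with a lead of 1 or more in TPC20223 are thus missing from these shares. The TATA box letters TATAAA, sought on both strands, were in 2 overlapping places in the Hoxd13 promoter and in none in that of Hoxd12, and were in 3 of the 23 HOX promoters and in 12.4% of all. CCAAT was found once before Hoxd13 and at 2 places before Hoxd12, and in 56.5% of HOX promoters against 33.8% of all. TTTATNG, letters that posterior HOX proteins bind, were in 1 of the 23 and in 9.81% of all, and TGATTNAT, letters that PBX and HOX proteins bind together, in 2 of the 23 and in 2.82% of all. These matches describe letters in a window and not bound sites. The promoter of Hoxd8, with a lead of 2.08, had 6 CG dinucleotides, and that of Hoxa13, with a lead of 0.97, had 35. The relation of CG content to the signals was not tested.

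Cluster A changed least. Of its 10 members only Hoxa11, which patterns the forearm, kidney and uterus, led by 1 or more in TPC20223, at 5.67, 6.88, 5.26 and 5.37. Hoxa13 came close, at 6.07, 7.39, 6.20 and 6.42. Hoxa10, a gene of the lumbar spine and uterus, was at 6.95, 7.63, 6.70 and 7.12, and Hoxa9, known from leukaemia, at 5.77, 6.69, 5.90 and 5.98.

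The central and anterior genes of cluster A differed little between the 4 lines. Hoxa4 was at 7.83, 7.91, 7.78 and 7.62 and was above the background reference in every line, as were Hoxa7, at 7.02, 7.33, 6.86 and 6.99, and Hoxa6, at 6.67, 7.21, 6.59 and 6.85. Hoxa5 led by 0.02 in TPC20223. Hoxa2 and Hoxa3 lay below the reference in all 4 lines.

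The leads of TPC20223 were most frequent among posterior genes. Leads of 1 or more were found in 1 of 7 anterior, 3 of 14 central and 10 of 16 posterior members, and the median leads were 0.25, 0.50 and 1.77. Among posterior genes they were found in 5 of 5 members of cluster C and 2 of 2 of cluster B, but in 2 of 5 of cluster D and 1 of 4 of cluster A. Cluster C, with the largest median lead, 2.67, has no anterior member, so position is mixed with cluster in these counts and medians. By paralog group, the genes of the same number that descend from 1 ancestral gene, the 4 members of group 13 led by 0.97, 2.60, 2.96 and 2.93 in clusters A to D and the 4 of group 9 by 0.71, 3.10, 2.67 and 1.11, whereas those of group 4 led by 0.08, 0.51, 0.49 and 0.11. Hoxc4 and Hoxd4 lay below the background reference in every line, so their leads are not a measure of expression. Across the 37 genes, Spearman's rho between number and lead was 0.61, a description over genes of 4 shared arrays. Hoxa2, Hoxa3, Hoxd1 and Hoxd12 are also among these genes and lay below the reference in every line.

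**Figure D2:**
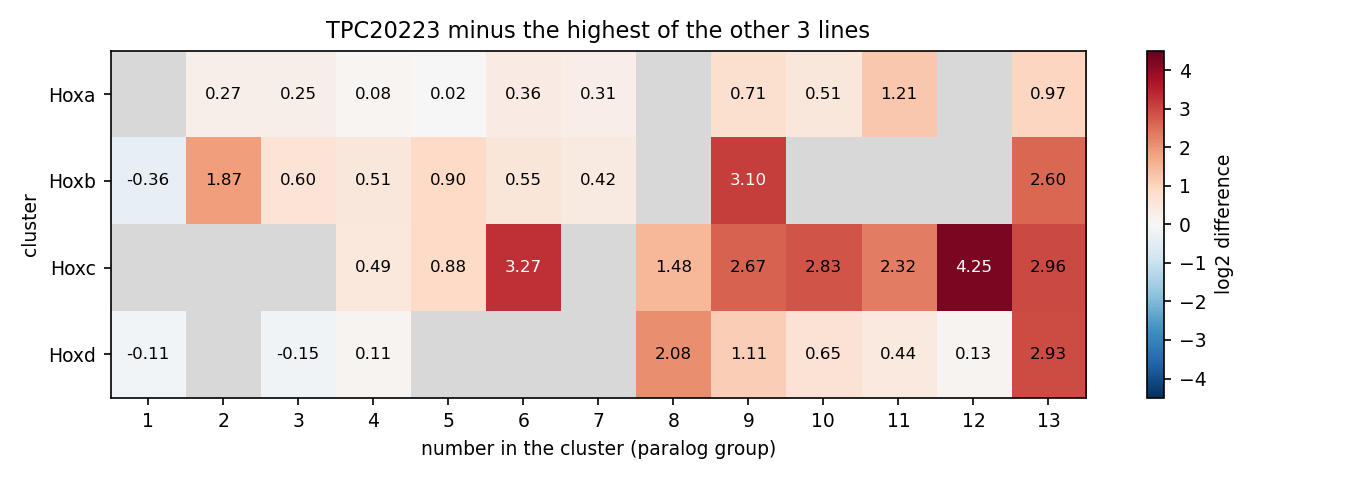
Log2 difference between TPC20223 and the highest of the other 3 lines for each HOX gene, with clusters in rows and gene numbers in columns. Red is higher in TPC20223, blue lower, and grey marks numbers without a measured member. The darkest cells are Hoxc12 at 4.25, Hoxc6 at 3.27 and Hoxb9 at 3.10, and column 1 is below 0.

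Between pairs of lines, the HOX genes split by TPC20223 and not by genotype. The 2 TPC lines were at least 2-fold apart in 15 of 37 HOX genes, 40.5%, against 11.2% of all genes. TPC20223 and K459 were apart in 16, and TPC20223 and TCPA18654 in 15, against 10.9% of all genes in both cases, and TPC20223 was the higher line in every one of these. TPC18645 and K459, of different genotypes, were apart in 0, where 4.34% of all genes were. TPC18645 and TCPA18654 were also apart in 0, against 0.271%, and so were K459 and TCPA18654, against 3.87%.

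The other 3 lines were about as alike in their HOX signals as over all genes. Their largest differences were 0.41 at Hoxa11 between TPC18645 and K459, 0.35 at Hoxa13 between TPC18645 and TCPA18654, and 0.45 at Hoxa5 between K459 and TCPA18654. The median absolute difference over the 37 genes was 0.13 to 0.17 in these pairs, against 0.12 to 0.17 over all genes, and 0.78 to 0.89 in the pairs with TPC20223, against 0.23 to 0.25. TPC18645 and K459 differed at least 2-fold in 866 genes, 4.34% of all, and in none of the 37 HOX genes. With so small a share over all genes, this count is not a trait of the HOX genes. Many of their signals in these lines also lay near or below the background reference.

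**Figure D3:**
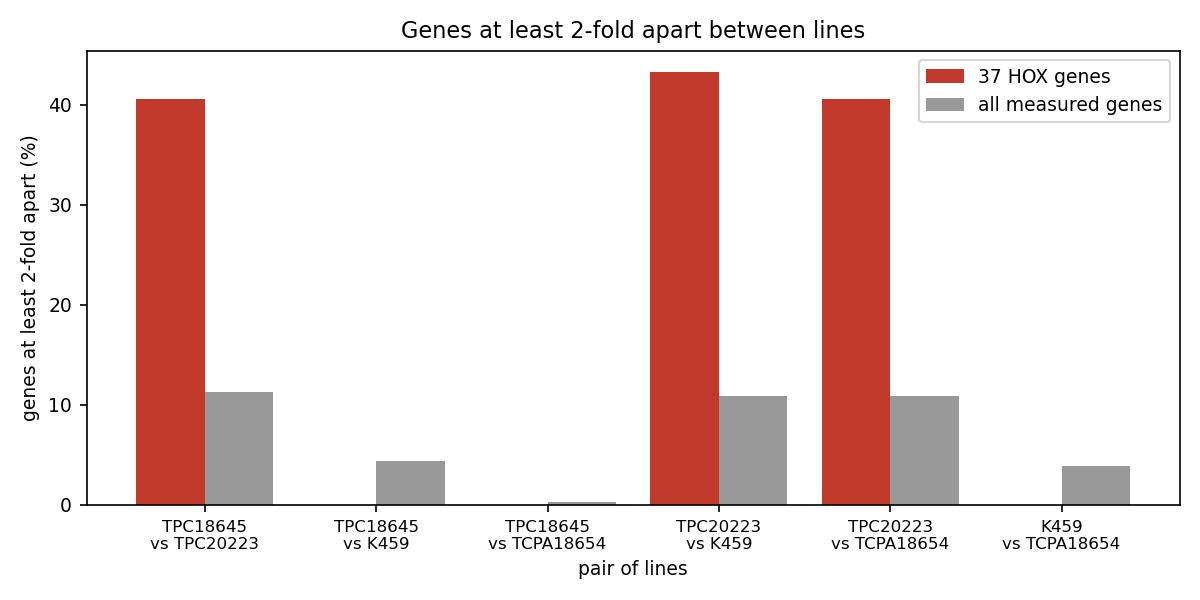
Percent of genes at least 2-fold apart (vertical axis) in each of the 6 pairs of lines, for the 37 HOX genes (red) and all measured genes (grey). The 3 pairs that hold TPC20223 reach 40.5% to 43.2% of HOX genes, and the other 3 pairs have none.

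The comparison of TPAC with TPC asks whether HOX signals differ with the loss of p65. By limma with Benjamini-Hochberg adjustment over all genes, 0 of 37 HOX genes were called, which takes a log2 difference of at least 0.58 with an adjusted p of no more than 0.05, and 0.0% of all genes were. At an unadjusted p under 0.05 limma gave 0 HOX genes, against 0.782% of all genes, and the methods' test gave 0 at both levels. The limma adjusted p was 0.989 for every member. An exact permutation test of 1 gene with 2 lines against 2 cannot give a p under 0.333.

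In mean signal, 34 of 37 HOX genes were lower in TPAC lines, against 47.3% of all genes, and the median difference was -0.46, against 0.01 over all genes. Without TPC20223 the median was -0.01, and without TPC18645, which leaves TPC20223 as the only TPC line, it was -0.77, with 24 of 37 members at an unadjusted p under 0.05 by limma, against 16.8% of all genes in that fit, and 0 called. Without TPC20223 limma gave 0 members an unadjusted p under 0.05, against 0.928% of all genes. Both TPAC lines lay below both TPC lines in 14 of 37 members, against 13.3% of all genes, and above them in 2, against 13.7%. TPC20223 was the highest line in 34 of the 37 members, against 28.1% of all genes, so these 2 counts also rest on it. The shares over all genes are therefore no like measure, and the counts are not a result about the genotypes. The size of the difference between the genotypes thus rested on TPC20223.

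The gene by gene values show the same. Hoxc12 averaged 6.52 ± 0.16 in the TPAC lines and 8.63 ± 3.18 in the TPC lines (SD, n = 2 each), a difference of -2.12 with a standard error of 1.65, and without TPC20223 the difference was 0.14. Hoxb9 differed by -1.68 with a standard error of 1.14, and by -0.13 without this line. Hoxd13 went from -1.40 to 0.21. In all, 13 of the 34 members that were lower in TPAC had a difference above 0 without TPC20223, and 20 of the 37 members were then lower in TPAC. The median difference without TPC20223 was -0.01 over the members and -0.015 over all genes.

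Some members kept a lower TPAC value. Hoxd11, with the smallest limma p of the members, was at 6.78, 7.22, 6.42 and 6.53, a difference of -0.53 ± 0.20 (SE), which became -0.31 without TPC20223, at a limma adjusted p of 0.989 and 0.995. Hoxa11 differed by -0.96 and -0.36 with and without it, Hoxc9 by -1.60 and -0.26, and Hoxc5 by -0.68 and -0.24. Hoxa11 and Hoxc5 lay below the background reference in every line but TPC20223, so their order without that line is not a measure of expression. Hoxb7 was at 7.31, 7.73, 7.03 and 7.15, with both TPC lines above both TPAC lines. Of the 3 members higher in TPAC, Hoxb1 differed by 0.22 ± 0.15 (SE) and Hoxd3 by 0.15 ± 0.13 (SE), and without TPC20223 by 0.09 and 0.20. None of these passed the test.

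**Figure D4:**
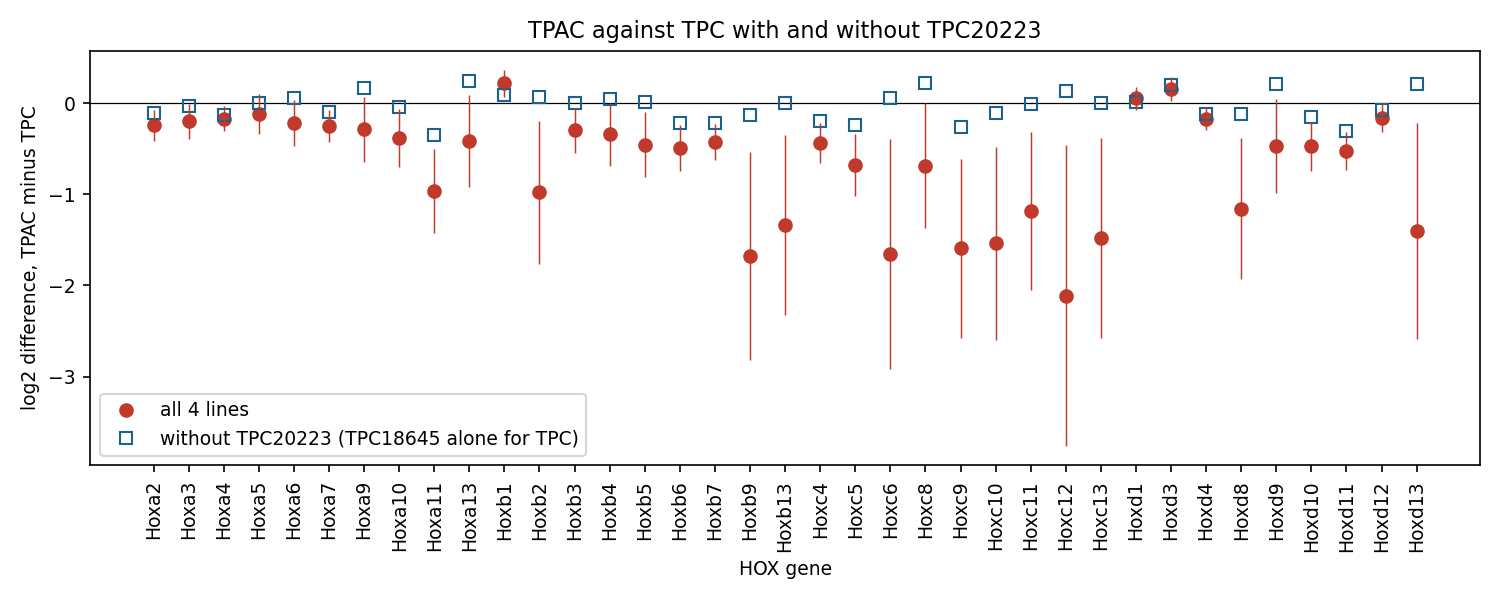
Log2 difference TPAC minus TPC for each HOX gene (horizontal axis, by cluster and number), with all 4 lines (filled circles, bars are the standard error of the limma fit) and without TPC20223 (open squares, where TPC18645 alone stands for TPC). Filled circles reach -2.12 at Hoxc12, while the open squares stay between -0.36 and 0.24.

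The HOX clusters also hold microRNA genes, of which miR-10 and miR-196 are known to target HOX messages. The mature RNAs below are from RefSeq, GRCm38.p6, and are shown with the seed, bases 2 to 8 that pair with the target, in capitals. The 2 families have different seeds, and the members of a family share theirs.
mmu-miR-196a-5p: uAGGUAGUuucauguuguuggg
mmu-miR-196b-5p: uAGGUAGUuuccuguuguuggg
mmu-miR-10a-5p: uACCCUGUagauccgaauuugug
mmu-miR-10b-5p: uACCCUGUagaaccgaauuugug

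The array reads RNA of the microRNA genes and not the mature form. Mir196a-1, at chr11:96265187-96265208 on the plus strand between Hoxb9 and Hoxb13, was at 4.99, 7.0, 4.81 and 5.10, above the reference in TPC20223 alone, and highest there as both neighbours were. Mir196a-2, in cluster C at chr15:102973365-102973386 on the plus strand, encodes the identical mature RNA and was at 5.01, 4.97, 4.98 and 4.93, under the background reference in every line although the genes around it were raised in TPC20223. Mir196b in cluster A was at 5.81, 6.09, 5.85 and 5.91, and Mir10a and Mir10b lay between 3.45 and 3.98.

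Of 9 measured noncoding genes of the clusters, Mir196a-1 alone spanned 2-fold. Over all genes the share was 15.9%, so this count is not a trait of the noncoding genes. Hottip, an RNA from the posterior end of cluster A, was at 5.61, 5.80, 5.65 and 5.86. Hoxaas2 was at 6.57, 6.36, 6.0 and 6.12, Hoxd3os1 at 6.92, 6.61, 6.69 and 6.84 and Mir615, in cluster C, at 7.95, 8.03, 8.06 and 8.21.

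The genes directly beside the HOX clusters did not share the rise. The 8 measured protein-coding genes directly next to a cluster, among them the homeobox genes Evx1 at 6.35, 6.33, 6.34 and 6.36 and Evx2 at 7.70, 7.73, 7.80 and 7.65, spanned 0.03 to 0.42. Evx1 and both neighbours of cluster B, Ttll6 and Skap1, lay below the background reference in every line, so their spans are not a measure of expression. The 10 nearest genes of cluster C, 5 on each side, spanned 0.16 to 0.59, where the HOX genes between them led by up to 4.25. Farther out, 4 of 40 neighbours, 10.0%, led by 1 or more in TPC20223, against 4.24% of all genes. They were Chn1, a Rac regulator beyond cluster D, at 6.22, 9.30, 6.93 and 6.82, Jazf1 and Creb5 beyond cluster A, with 9.39 and 9.94 in TPC20223 and at most 6.99 and 8.52 elsewhere, and Copz2, a coat protein gene beyond cluster B, at 10.17, 12.01, 10.15 and 9.84.

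HOX proteins bind DNA together with PBX, MEIS and PREP partners. Of 8 measured cofactor genes 3 spanned 2-fold, against 15.9% of all genes, and none was called between TPAC and TPC by limma, with 0 at an unadjusted p under 0.05 with or without TPC20223. Pknox2, which encodes a PREP protein, was at 6.04, 7.62, 6.28 and 6.15, led by TPC20223. Meis1 was at 9.52, 8.97, 8.28 and 9.52, lowest in K459, and Meis2 at 11.05, 10.25, 11.36 and 10.95, lowest in TPC20223. The PBX genes Pbx2, Pbx3 and Pbx4 spanned 0.06 to 0.56.

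ParaHox genes, relatives of the HOX genes, moved differently, among them Pdx1 and the caudal genes that activate HOX clusters. Pdx1, which makes the pancreas and keeps its endocrine cells, was at 7.76, 5.90, 9.85 and 7.46, lowest in TPC20223, where it lay under the background reference, and highest in K459. Cdx2, a caudal gene of the intestine, was at 7.17, 6.63, 8.66 and 7.79, lowest in TPC20223 and higher in both TPAC lines, with a limma p of 0.031 before adjustment and 0.989 after it. Without TPC20223 its difference was 1.06 instead of 1.33, with a limma p of 0.124 before adjustment and 0.995 after it. Cdx1 was at 8.0, 7.82, 7.90 and 7.89. The list of 8 also held Gsx1, Gsx2 and the cluster neighbours Evx1 and Evx2. Of its genes 2 spanned 2-fold, where 15.9% of all genes did, and none led in TPC20223.

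Polycomb and Trithorax genes, which silence and keep active the HOX clusters, were above the background reference in every line in all 24 and all 14 measured members. Suz12, a core subunit of the Polycomb complex that methylates histone H3 at lysine 27, was at 10.55, 8.79, 10.68 and 10.72, lowest in TPC20223. Its partners Ezh2, at 11.07, 11.47, 11.50 and 11.17, and Eed, at 8.82, 8.54, 9.0 and 8.82, spanned less than 2-fold. Cbx2, of the second Polycomb complex, was at 8.56, 9.77, 8.63 and 8.52, the only Polycomb gene that led in TPC20223 by 1 or more. Pcgf6 was at 9.40, 8.82, 10.03 and 9.20. Suz12, Cbx2 and Pcgf6 were the 3 of 24 Polycomb genes that spanned 2-fold, against 15.9% of all genes. The lead of Cbx2 makes 4.17% of the list, against 4.24% of all genes, so neither count is a trait of the Polycomb genes.

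No Trithorax or demethylase gene of the 14 spanned 2-fold, where 15.9% of all genes did. Kmt2a, the methyltransferase known to keep HOX genes active, was at 10.13, 10.12, 10.09 and 10.10. Mllt3 was at 9.29, 9.99, 9.28 and 9.22, Mllt1 at 10.91, 11.20, 10.52 and 10.87 and Dot1l at 9.22, 8.68, 9.29 and 9.23. By limma none of either list was called between the genotypes, and 0 of both had an unadjusted p under 0.05, with or without TPC20223. The part of these genes in the HOX signals was not tested.

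Retinoic acid, made from vitamin A, switches on anterior HOX genes first. Of its 17 measured pathway genes 10 spanned 2-fold over the lines, against 15.9% of all genes. Aldh1a1, which makes retinoic acid, was at 12.44, 5.84, 10.16 and 12.04, under the background reference in TPC20223, and the receptor gene Rarb was at 9.07, 6.76, 8.87 and 8.61. Aldh1a2, of the same family, was at 5.52, 6.75, 5.54 and 5.49, above the reference in TPC20223 alone. Aldh1a3 was at 7.82, 7.38, 8.44 and 8.25, above it in every line. The binding protein genes Crabp1, at 7.74, 12.16, 9.08 and 7.76, and Crabp2, at 6.35, 9.47, 7.17 and 6.70, were highest in TPC20223. Between the genotypes limma gave 3 of the 17 an unadjusted p under 0.05, against 0.782% of all genes, and called none, and without TPC20223 it gave 0, against 0.928%.

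Markers of cells other than cancer cells were compared for the same lines, since TPC20223 was low in epithelial genes. Col1a1, the collagen of fibroblasts, was at 8.53, 13.02, 10.36 and 8.72, and Tagln, of smooth muscle and myofibroblasts, at 6.85, 11.87, 8.69 and 7.14, highest in TPC20223. Others of the list had another order, with Thy1 highest in K459, at 6.99, 7.23, 8.86 and 6.87, and Dcn highest in TPC18645, at 11.03, 9.35, 8.57 and 10.99. Of the 16 fibroblast and mesenchymal markers 4 led by 1 or more in TPC20223, against 4.24% of all genes. In each line 14 of them lay above the background reference. Fap and Lum, also fibroblast genes, lay below it in all lines. Mean signals over 8 acinar markers were 7.08, 6.65, 6.47 and 6.61, over 9 immune markers 6.76, 6.24, 6.84 and 6.80, over 8 endothelial markers 6.32, 6.48, 6.25 and 6.38, and over 8 Schwann and neural markers 7.84, 7.42, 7.61 and 7.71. Ptprc, which defines leukocytes, and Pecam1, which defines endothelium, were below the reference in every line. Cd14, at 9.66, 6.66, 10.53 and 9.59, and Cd68, at 8.60, 6.66, 7.66 and 8.60, were above it in every line. Tek, at 5.85, 7.15, 5.80 and 5.80, and Kdr, at 6.20, 7.02, 6.16 and 6.13, were above it in TPC20223 alone. In the 4 lines 5, 6, 6 and 5 of the 9 immune and 4, 4, 3 and 4 of the 8 endothelial markers lay above it. The shares of all genes above the reference were 69.0%, 70.4%, 70.2% and 68.2%. Whether TPC20223 holds cells of another kind or cancer cells of another state cannot be told apart in RNA of whole cultures, and the part of this in the HOX signals was not tested.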

How the data were processed

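RNA of 4 cell lines was hybridised to Affymetrix Mouse Gene 1.0 ST arrays, 1 per line. The values deposited by the authors are on the log2 scale after RMA (background correction, quantile normalization and probe summary), for which Affymetrix Expression Console 1.4 stands in the processing notes of the submitters. The genome build behind the array annotation and any array batch are not given in the sources used here. Of 28941 transcript clusters, 21789 had 1 symbol in the platform annotation and were used, giving 19938 genes, and for genes with several the one of highest mean stood for the gene. RMA gives arrays nearly the same distribution, so differences in total RNA cannot be seen, and the number of arrays limits the precision.

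For TPAC against TPC, lmFit and eBayes of limma 3.58.1 were run two-sided under R 4.3.3 after being tested on simulated data, with Benjamini-Hochberg adjustment over all genes. Single lines were compared without a test. The members, companion lists and neighbours were chosen with earlier results of these data known. Named genes were the members above the background reference in a line that spanned 2-fold, then those of smallest p and highest mean, and the 3 widest genes of each list. Genes beyond this were chosen after their values were seen. Alternatives were other scalings, cluster rules, filters, thresholds, tests and references, and leaving out each line. Arrays of KPC and KC cells were not analysed here.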

Additional observations from a re-analysis of the deposited data

How the results depend on the processing

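No paired analysis was possible because the labels give the lines no shared replicate numbers. Setting the arrays to a common median, cyclic loess and the mean of a gene's clusters changed no direction of a named HOX gene and no HOX count by 1.5 times or more, and under cyclic loess 4 instead of 6 neighbours of the clusters spanned 2-fold. Leaving out each line in turn gave median TPAC minus TPC differences from -0.77 to -0.01 and 0 calls, and without TPC20223 (TPC replicate 2) the direction turned in 8 of the named genes and in 13 members in all. Over the lines left out, their differences ran from -1.08 to 0.24 in Hoxa13, -2.03 to 0.07 in Hoxb2, -3.37 to 0.055 in Hoxc6, -1.61 to 0.23 in Hoxc8, -4.37 to 0.14 in Hoxc12, -2.97 to 0.005 in Hoxc13, -1.16 to 0.21 in Hoxd9 and -3.01 to 0.21 in Hoxd13. With 1 array left in a group, limma takes that line to vary like the other genotype. Keeping the 40th percentile of the means as a lower limit on genes, 6 members were at least 2-fold apart in each of the 3 pairs with TPC20223 and 6 led in it, because 25 members were then left out. This filter keeps dim genes only where a line is high. At 1.5-fold, 26 members differed between TPC20223 and K459 and 24 between TPC20223 and TCPA18654. The counts above background depend on the reference: at the 99th percentile of olfactory receptors they were 5, 20, 3 and 3 in TPC18645, TPC20223, K459 and TCPA18654, and at the 95th percentile of vomeronasal receptors 34, 37, 34 and 33. The counts of members leading in a line were added after seeing the data. Signals near background limit the size of a difference, and 2 lines per genotype limit every test.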
